A study of Daphnia magna with 15 samples.

Results

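In the water flea Daphnia magna, 1740 gene models carried methylated cytosines in some bisulfite libraries but in fewer than 50% of the libraries that read them. They were chosen from their own counts. A library covered a gene model when it held 10 or more cytosine calls on it, and a gene model was a member when 6 or more libraries covered it, its median depth over these libraries was under 500 calls, and methylated calls were present in at least 2 but in under 50% of the covering libraries. Another 121 gene models met these conditions but were left out, because they were methylated in no covered control and in 50% or more of the covered salinity libraries. The members were 10.3% of the 16835 gene models with that coverage and depth, and 6.93% of the 25092 gene models listed in any library. Because the methylated counts chose the members, how often they were methylated is described here without a test.

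The study asked whether DNA methylation differed between daphnids exposed and not exposed to salt. There were 12 libraries labelled salinity and 3 labelled control, all of genomic DNA from adult females. Founder cultures of the salinity group were kept at 4.1 g/L NaCl and those of the control group without added NaCl, 3 cultures each, at 20 °C with 16 h of light. Descendants down to generation 4 were raised from newborns without added NaCl. The labels do not give the generation or culture of a library, so a salinity library may come from exposed founders or from unexposed descendants, and 12 libraries from 3 cultures cannot all be independent. Libraries held 1250901 to 2905380 calls and listed 8053 to 18896 gene models. Salinity replicates 9, 11 and 12 and control replicate 3 stood apart with few methylated gene models, and the differences between groups in shares and levels are given with and without them.

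Cytosine methylation is written and copied by DNA methyltransferases. In arthropods it is sparse and sits mainly within the transcribed part of a subset of genes, while most genes carry little of it. After bisulfite treatment mainly methylated cytosines are still read as cytosine, so that each cytosine call in a read is counted as methylated or not. The methylation level of a gene model is the number of methylated calls divided by all its calls in that library. The files pair no gene names with the identifiers, and 0 of the 1740 matched the reference gene table of the species, so the functions of the members are not given and identifiers are printed as deposited, without the word Parent before them.

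Most members were methylated in very few libraries. Methylated calls were present in 2 libraries for 988 members (56.8%), in 3 for 564 (32.4%), in 4 for 138 (7.93%), in 5 for 31, in 6 for 14 and in 7 for 5. A member was covered in a median of 7 libraries, and 97 were covered in all 15. The median share of covering libraries with methylated calls was 28.6%. In 14685 readings of a member in a covering library, 4494 (30.6%) held methylated calls. These made up 31.7% of all 14169 such readings in the series.

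Where members were methylated, the level was low and rested on a handful of calls. The median level was 5.90%, with a 10th percentile of 1.64% and a 90th percentile of 20.7%. Levels were under 10% in 69.7% of the methylated readings and at 50% or more in 38 of them (0.846%). A count of 3 methylated calls was the most frequent (1575 readings, 35.0%), followed by 4 (1059 readings, 23.6%), 6 (457 readings) and 5 (390 readings). The median was 4 methylated calls and the highest count 28. Counts of 1 and 2 did not occur in these readings, so a level of 0 stands for few methylated calls or none.

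The number of methylated calls hardly changed with depth. In the class of readings starting at 10 calls the median was 4 methylated calls, and it was also 4 in every deeper class up to 500 calls or more. The median level of the methylated readings therefore went down with depth, at 25.0%, 13%, 5.99%, 3.25%, 1.47% and 0.671% in classes starting at 10, 20, 50, 100, 200 and 500 calls. Over the 4494 methylated readings the rank correlation of level with depth was -0.87 and that of methylated calls with depth was 0.05. Level and depth share the same denominator, and no methylated reading held fewer than 3 methylated calls. A shallow methylated reading therefore cannot have a low level, which fixes part of the fall in level. Readings of 1 member or library are not independent either, so these values are descriptive only.

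**Figure D1:**
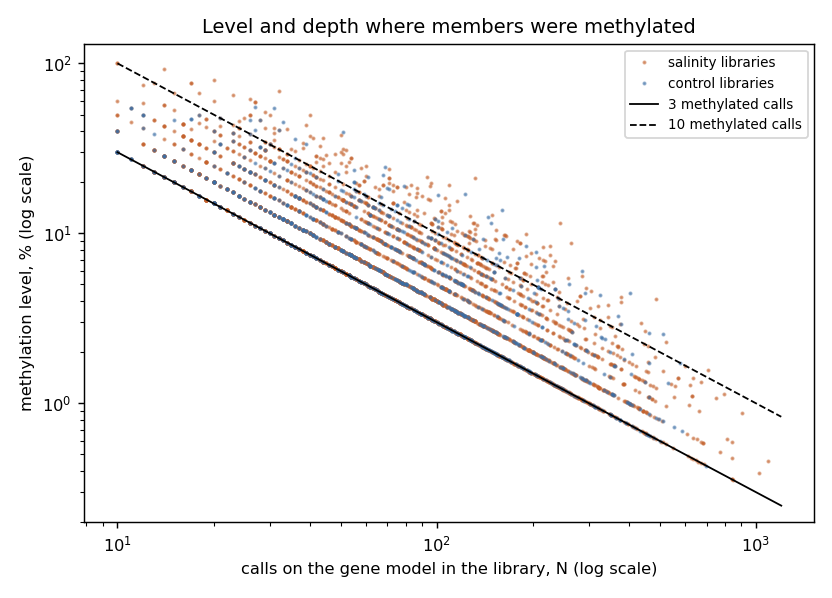
Methylation level (%, log scale) against the number of calls (log scale), 1 point per member and methylated library, with lines at 3 and 10 methylated calls. The points lie in stripes of constant methylated counts, with a median of 4, and the level falls with depth along them.

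Deeper readings were methylated somewhat more often. Methylated calls were present in 19.5% of 1320 readings in the class starting at 10 calls, in 28.3%, 32.4%, 33.3% and 33.9% in the classes starting at 20, 50, 100 and 200 calls, and in 38.0% of 142 readings with 500 or more. The median depth was 78 calls in methylated readings and 68 in the others. Within a member, the median depth of its methylated libraries was the higher one in 1211 members, the lower one in 517 and the same in 12, with a median ratio of 1.13.

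**Figure D2:**
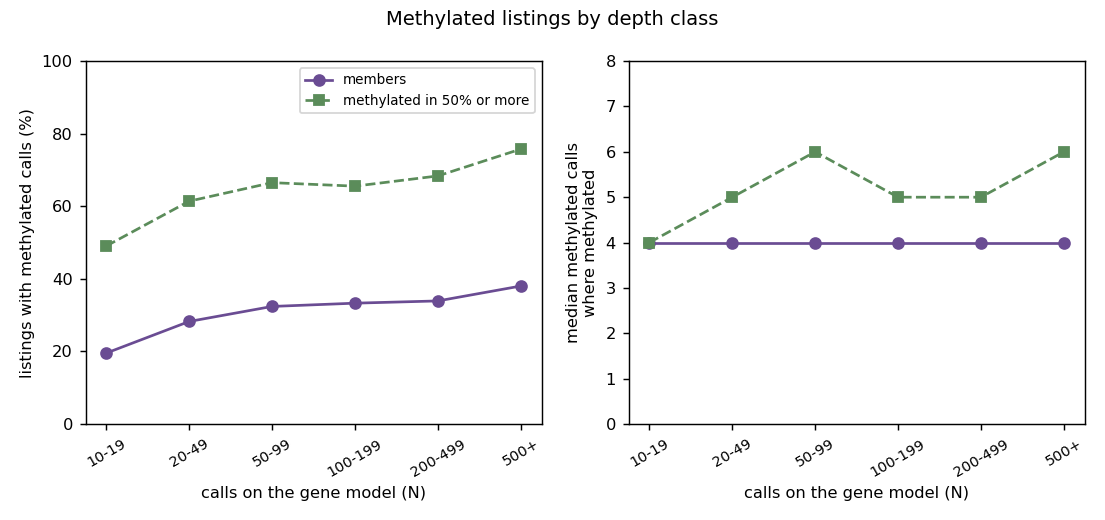
Share of readings with methylated calls (left, %) and median methylated calls where methylated (right) by depth class, for the members (circles) and for gene models methylated in 50% or more of their covering libraries (squares). The share for members runs from 19.5% to 38.0% while their median stays at 4 calls.

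Many libraries without methylated calls were deep enough for some to be expected at the member's own level. The expected number was the depth times the pooled level of a member's methylated libraries, with a median of 4.04. It was 3 or more in 72.3% of the 10191 unmethylated readings, 4 or more in 50.9% and 10 or more in 4.19%. An expected number is an average, so a reading with an expected number near 3 can hold fewer calls. At the lowest level among its methylated libraries these shares were 45.6%, 24.0% and 1.22%. Levels counted only where calls were seen run high, so these shares do too. The unmethylated readings include those of the libraries with few methylated gene models. Salinity replicates 9, 11 and 12 had methylated calls in 183 of 1046, 39 of 790 and 46 of 562 covered members. Control replicate 3 had them in 143 of 967. The shares were not computed without these libraries, so they do not describe the members alone.

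The members were also compared with the 786 gene models of the same coverage and depth limits that were methylated in 50% or more of their covering libraries. The choice by methylated libraries fixes part of this contrast, so it has no test. Median depth was 72 calls per member and 71.5 per recurrently methylated gene model, and each class was covered in a median of 7 libraries. Where methylated, the median level was 5.90% in members and 7.89% in recurrent gene models, with a median of 4 and 5 methylated calls. The 1891 gene models methylated in a single library had a median depth of 72 calls and a median level of 5.13%. The 12297 with no methylated library had a median depth of 67 calls.

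Within a member, the highest level was a median of 1.84 times the lowest over its methylated libraries. It was at most 2 times the lowest in 994 members (57.1%) and 5 times or more in 73 (4.20%). The same median was 3.02 in the recurrent gene models, which have more methylated libraries to spread over.

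At the limits of the rule, the highest share of methylated libraries inside was 46.7% (5 members), and 184 gene models lay at exactly 50% outside. Their median levels were 4.59% inside and 7.02% outside. The 988 members with 2 methylated libraries had a median level of 5.88%, against 5.13% in gene models with 1. The highest median depth inside was 490 calls and the lowest outside 504. At 5 covering libraries, 175 further gene models met the other conditions, next to 143 members at 6.

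Some members carried the same counts as others. The same total and methylated counts in every library were shared by 36 members, in 18 groups. Among the 188 members methylated in 4 or more libraries, 35 fell into 16 groups with the same methylated counts throughout while total counts could differ. The 3 members with the most methylated calls, Dapma7bEVm010516t1, Dapma7bEVm645420t1 and Dapma7bEVm645444t1, were such a case. Each held 9 methylated calls in control replicate 2 and 11, 10, 8, 6 and 4 in salinity replicates 10, 9, 3, 6 and 7, and the first 2 also held 3 in salinity replicate 1. Whether they share reads was not tested. All 3 are among the 1740 and in the counts above, but their agreement is not read as separate observations.

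Libraries differed widely in how many members were methylated. Of the members it covered, a salinity library had methylated calls in 4.94% (salinity replicate 11), a median of 33.0%, and up to 43.1% (salinity replicate 2). The 3 controls were at 42.2%, 40.4% and 14.8%. The low libraries were salinity replicates 9 (17.5%), 11 and 12 (8.19%) and control replicate 3. In these 4 the lowest recurring methylated count was 4, where it was 3 in the other 11. Median depth over the covered members was 79, 55 and 51 calls in the 3 low salinity libraries and 66 in the low control, within or below the 59 to 90 calls of the other 11.

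Counting only readings with 4 or more methylated calls applied the same minimum count to all libraries. Whether this makes the libraries comparable was not tested, because the calling rule is not given. The share was then 18.9% ± 7.05 (SD, n = 12) in salinity and 21.3% ± 5.68 (SD, n = 3) in control libraries. Salinity replicate 9 at 17.5% and control replicate 3 at 14.8% lay within or next to the range of the other 11 libraries, 14.8% to 28.3%. Salinity replicates 11 and 12 stayed below it at 4.94% and 8.19%. The difference between the groups was -2.41 percentage points. It was -5.69 without control replicate 3, 0.0668 without salinity replicates 11 and 12, and -2.78 in the 11 libraries. Over gene models methylated in 50% or more of their libraries, where any methylated call counted, all 4 libraries lay below the others. The shares were 46.7%, 18.6% and 29.3% in salinity replicates 9, 11 and 12 and 41.0% in control replicate 3, against 53.1% to 78.5% in the other 11.

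**Figure D3:**
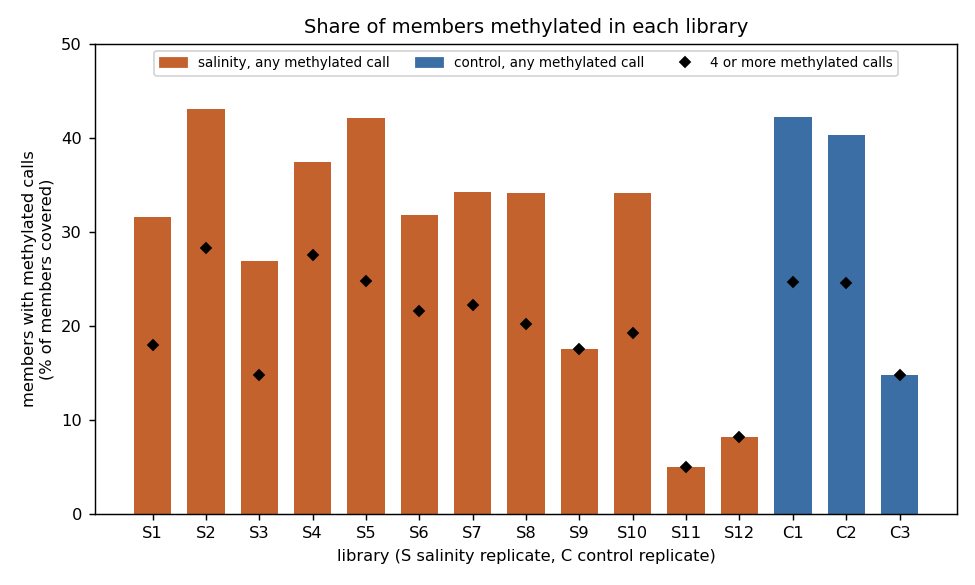
Share of covered members with any methylated call (bars) and with 4 or more (diamonds), in % of the members each library covered, for 12 salinity and 3 control libraries. Salinity replicates 11 and 12 are the lowest by both counts, at 4.94% and 8.19%.

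Salinity and control libraries overlapped in the share of members methylated. The mean was 28.8% ± 12.4 (SD, n = 12) in salinity and 32.5% ± 15.3 (SD, n = 3) in control libraries, a difference of -3.62 percentage points, smaller than the spread within either group. The direction depended on single libraries. The difference was 1.27 points without control replicate 1, 0.335 without control replicate 2 and -12.5 without control replicate 3. Without salinity replicates 11 and 12 it was 0.839. In the 11 libraries with a lowest recurring count of 3 the means were 35.1% ± 5.14 (SD, n = 9) and 41.3% ± 1.32 (SD, n = 2).

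The rule also tilts this comparison, since the gene models it leaves out were all unmethylated in controls. With the 121 put back, the means were 29.9% in salinity and 29.6% in control libraries. In the 11 libraries they were then 36.4% and 37.8%. The S numbers of the sample titles form 3 bands, beginning at 1, 10 and 17, and every band has 4 salinity libraries and 1 control. Within the bands, the salinity mean and the control were 34.4% and 42.2%, 31.1% and 40.4%, and 21.1% and 14.8%. Of the low libraries, salinity replicate 11 is in the second band. Salinity replicates 9 and 12 and control replicate 3 are in the third.

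Levels where methylated lay close together in the groups. The median level per library averaged 6.26% ± 1.29 (SD, n = 12) in salinity and 6.46% ± 0.889 (SD, n = 3) in control libraries. The difference of -0.203 points turned to 0.139 without control replicate 3 and was -0.537 without salinity replicates 11 and 12. In the 11 libraries with a lowest recurring count of 3 it was -0.231. Salinity replicate 12, with 46 methylated members, had the highest median at 10.1%. As a share of all calls on members, methylated calls made up 1.40% ± 0.544 (SD, n = 12) in salinity and 1.56% ± 0.628 (SD, n = 3) in control libraries. This difference of -0.159 points was -0.521 without control replicate 3 and 0.0458 without salinity replicates 11 and 12. In the 11 libraries it was -0.233, from 1.69% ± 0.112 (SD, n = 9) in salinity and 1.92% ± 0.0547 (SD, n = 2) in control libraries.

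Single members were methylated in different sets of libraries. Of the 988 members with 2 methylated libraries, 599 had both in the salinity group, 364 had 1 in each group, and 25 had both in the control group. They spread over 93 of the 105 pairs of libraries. Of the 105, 66 are pairs of salinity libraries, 36 are mixed and 3 are pairs of controls. The counts by kind of pair therefore follow in part from the number of pairs. No pair held more than 34, a number reached by salinity replicates 2 and 8 and by salinity replicates 4 and 10. Among the members covered in both libraries of a pair, a median of 6.17% were methylated in both for pairs of salinity libraries (range 0.295% to 13%), 7.95% for mixed pairs (0.533% to 15.5%) and 5.43% for the 3 pairs of controls (3.90% to 12.2%).

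**Figure D4:**
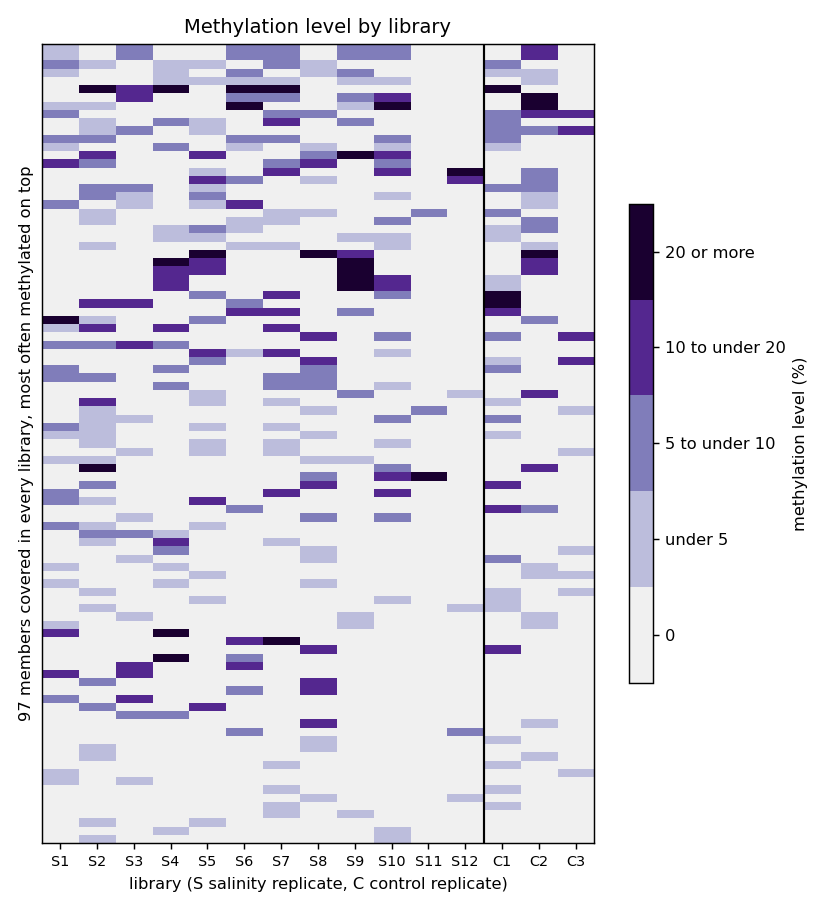
Methylation level (%, in classes) of the 97 members covered in every library, 1 row per member and 1 column per library, with 12 salinity libraries left of the line and 3 controls right of it. Methylated readings are scattered over the libraries, with 3 and 6 of the 97 in salinity replicates 11 and 12.

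Members methylated in salinity libraries only were far more numerous than those methylated in controls only, but there were 4 times as many salinity libraries. Of all members, 822 were methylated in salinity only, 28 in control only and 890 in both. In 890 members a single control was covered, and in 17 none. The rule asks for 2 methylated libraries, so these members could not be methylated in control only. In the others, control only takes 2 or more methylated controls, so the rule fixes part of this contrast. Of the 829 covered in at least 2 controls and 4 salinity libraries, 223 were methylated in salinity only, 28 in control only and 578 in both. In these, the share of methylated libraries was a mean of 28.0% in salinity and 32.7% in control, higher in salinity for 330 members, lower for 449 and equal for 50. Over the same members, 286 were higher and 483 lower without control replicate 3, 368 and 435 without salinity replicates 11 and 12, and 305 and 453 in the 11 libraries. With the 121 gene models put back, 451 were higher and 449 lower in salinity.

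The 28 members methylated in control only were covered in 4 to 8 salinity libraries each. Their pooled level over the covered controls had a median of 5.53% and ran from 1.56% to 22.7%. Their depth was a median of 284 calls summed over the covered salinity libraries and 207.5 over the covered controls. Control replicate 1 was among the methylated libraries in all 28, with control replicate 2 in 18 and with control replicate 3 in 13.

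Members were then read out from the test of salinity against control, which was run over every gene model covered by at least 2 control and 8 salinity libraries. It covered 1900 gene models, 237 of them members; the other members were not covered in enough libraries. None of the 237 passed, and 0% of all 1900 passed (quasi-binomial regression with a two-sided F test, at a Benjamini-Hochberg adjusted p under 0.05). The smallest adjusted p of a member was 0.220. Limma on logit levels called 0 as well, with 13 members (5.49%) and 3.79% of all tested gene models at an unadjusted p under 0.05. In the regression 11 members (4.64%) were at an unadjusted p under 0.05, against 3% of all tested gene models and 57 of the 519 with any methylated call (11.0%). Of the 11, 2 were higher and 9 lower in salinity, against 0.316% and 2.68% of all tested. The gene models left out by the rule were methylated in salinity libraries and in no covered control. The rule may therefore tilt the split of members by direction, here and by mean level. The split with them put back was not computed for this test. The lean to lower values was also present in the other settings at an unadjusted p under 0.05. Members higher and lower in salinity numbered 2 and 11 by limma and 4 and 19 with methylated counts of 3 set to 0. They numbered 5 and 40 with 4 covered salinity libraries sufficing. Leaving out 1 library at a time gave 1 to 4 higher and 7 to 17 lower. Only blocking by title band gave an even split among members. There 13 were higher and 13 lower in salinity, against 1.16% and 2.84% of all tested. Without a floor on the dispersion 1 member passed at an adjusted p under 0.05, against 1.21% of all tested, and with methylated counts of 3 set to 0, 2 members passed, against 0.105%. At an unadjusted p under 0.05, the setting with counts of 3 at 0 gave 23 members (9.70%), against 2.84% of all tested. With 4 covered salinity libraries sufficing, 45 of 829 members (5.43%) were there, against 3.15% of all 8248 gene models. Every tested member had methylated calls as deposited, against 519 of the 1900. Without methylated calls the regression gives no small p, so shares over all tested are not a like base for members. By mean level, 139 of the 237 were higher in salinity and 98 lower. Of the 519 with any methylated call, 343 were higher and 176 lower. These were 18.1% and 9.26% of all tested, most of which had no methylated call. The median difference was 0.334 percentage points over the 237 and 0.284 over the 519.

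The pair with the smallest p among members lower in salinity showed both kinds of pattern. Dapma7bEVm003477t1 had 0 methylated calls in all 8 covered salinity libraries, on 90 to 196 calls each. In the controls it had 8 of 330, 9 of 257 and 0 of 214 calls. The level was 0 in salinity and 1.98% ± 1.79 (SD, n = 3) in control libraries, and the groups shared the value 0 through control replicate 3. The regression gave an unadjusted p of 0.000393 and an adjusted p of 0.220.

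Dapma7bEVm010290t1 was covered in all 15 libraries and methylated in every control. In salinity libraries its level ran from 0 to 7.32% with a median of 0, from 3 methylated calls in each of salinity replicates 2, 3 and 5. The controls were at 7.69%, 6.98% and 10.9%, from 3, 3 and 11 methylated calls. The means were 1.24% ± 2.42 (SD, n = 12) in salinity and 8.52% ± 2.08 (SD, n = 3) in control libraries, a difference of -7.28 points. One salinity library lay within the control range, and the adjusted p of the regression was 0.371. In 6 of the 9 salinity libraries without methylated calls the depth was under the 39 calls of control replicate 1, so that 3 methylated calls there would give a level above that control.

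The pair with the smallest p among members higher in salinity rested on few libraries. Dapma7bEVm629935t1 had levels of 11.3%, 19.4% and 7.83% in salinity replicates 1, 3 and 4, from 11, 6 and 9 methylated calls, and 0 in the other 6 covered. It had 0 methylated calls in the controls, on 57, 116 and 55 calls. The mean was 4.28% ± 7.07 (SD, n = 9) in salinity libraries and 0 in control, with an adjusted p of 1 in the regression. Dapma7bEVm629886t1 had 4 of 162 and 3 of 113 calls in salinity replicates 6 and 8, 0 in 7 other salinity libraries and 0 of 404 in the controls, also with an adjusted p of 1.

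**Figure D5:**
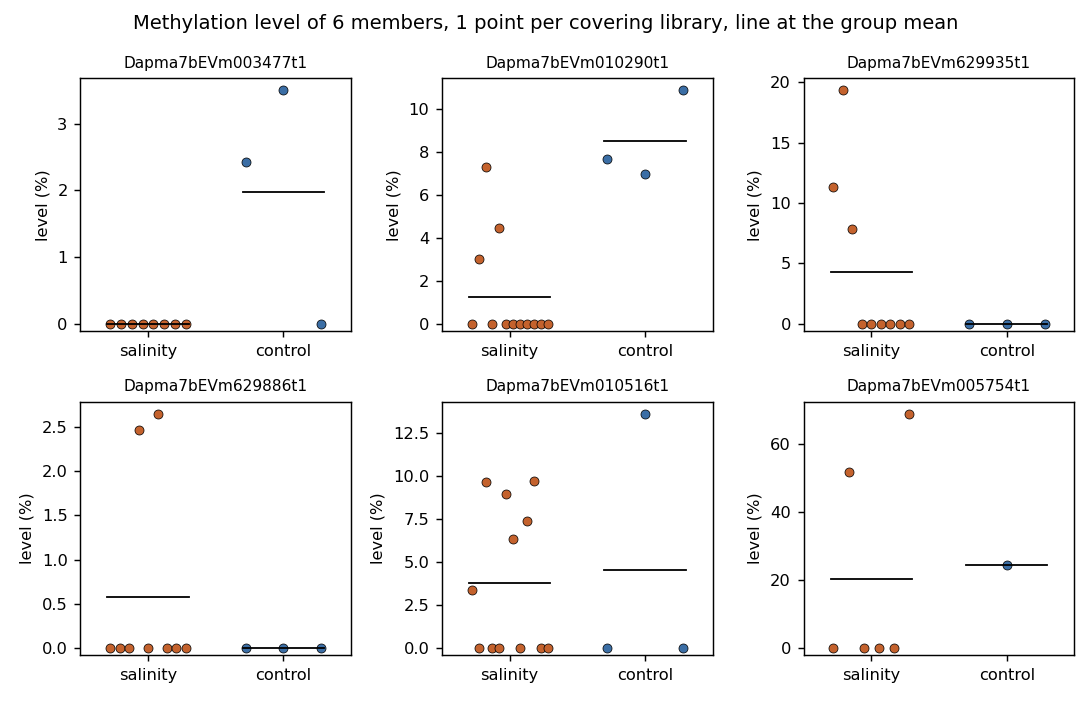
Methylation level (%) of 6 members by group, 1 point per covering library and a line at the mean, salinity left and control right. Zeros are present in the salinity group of all 6, and in Dapma7bEVm010290t1 alone all 3 controls lie above 0.

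Members with high levels were shallow. The highest mean level over methylated libraries, among members with a mean of 30 or more calls there, was that of Dapma7bEVm005754t1. It had 22 of 32 calls methylated in salinity replicate 10 (68.8%), 15 of 29 in salinity replicate 4 (51.7%) and 7 of 29 in control replicate 1 (24.1%). In salinity replicates 1, 7, 8 and 9 it had 0 methylated calls on 20, 17, 28 and 33 calls. Next was Dapma7bEVm010612t1, with 5 of 32 calls (15.6%) in salinity replicate 7 and 0 in the 3 other salinity libraries, and 15 of 33 (45.5%) in control replicate 1 and 0 of 26 and 0 of 21 in the other controls. Dapma7bEVm028792t1 had 25.0% and 43.6% in salinity replicates 4 and 8 and 22.4% in its single covered control, with 0 in 4 salinity libraries. In all 3, libraries with similar depth were either clearly methylated or at 0.

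At the other end of depth, Dapma7bEVm018620t1 had a median of 490 calls. It held 6 of 440 methylated calls in salinity replicate 8 and 0 in 3 other salinity libraries, and 4 of 462 in control replicate 2 and 0 in the other controls. Dapma7bEVm009498t1, with a median of 487 calls, held 4 of 672 in salinity replicate 2 and 3 of 481 in control replicate 2. Dapma7bEVm007534t1, with a median of 12 calls, held 6 of 11 and 5 of 10 methylated calls in salinity replicates 6 and 9 and 0 in both covered controls. Dapma7bEVm007701t1, also at a median of 12 calls, held 3 of 12 and 7 of 23 in salinity replicates 2 and 5 and was covered in no control.

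Some members had similar levels in their methylated libraries. Dapma7bEVm015154t1 and Dapma7bEVm001415t1 were picked for the smallest ratio of highest to lowest level among members methylated in 4 or more libraries. Dapma7bEVm015154t1 was at 2.34%, 2.54% and 2.76% in salinity replicates 1, 5 and 7 and at 2.65% in control replicate 1. These were 3 of 128, 3 of 118, 4 of 145 and 3 of 113 calls, so the even level rests on counts at or next to the lowest seen. It was 0 in 6 other salinity libraries on 79 to 209 calls and in 2 controls on 125 and 108. Dapma7bEVm001415t1 was at 6.52%, 6.67% and 7.35% in salinity replicates 2, 8 and 10 and at 9.09% in control replicate 3. These were 6 of 92, 7 of 105, 5 of 68 and 9 of 99 calls. Apart from the set of shared counts, 3 members were methylated in 7 libraries. Of these Dapma7bEVm002964t1 held the most methylated calls, with methylated calls in 6 of 12 salinity libraries (0.665% to 1.70%) and in 1 of 3 controls (4 of 399 calls), on 306 to 601 calls.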

How the data were processed

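Genomic DNA of 15 libraries had been digested with MspI, given methylated adapters and treated with bisulfite, per the labels' protocols. The submitters' processing notes name Trim Galore 0.4.4, FastQC and Bismark 0.18.1. Not given in the sources used here are the genome build, the cytosine context, the calling rule and how positions were summed per gene model. Each deposited table holds raw total counts per gene model for 1 library (N in the file headers). The methylated counts (X) were handled as estimated counts, because 27 of the deposited values missed a whole number, and were rounded. N and X were read as total and methylated calls because X never exceeded N.

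Tables were joined by identifier (81 members had 2 positions across libraries). Groups came from the treatment label, and replicate numbers only name libraries. No 2 libraries held identical tables (0 pairs). The members and lists were chosen with earlier results of these data known. The named members are those methylated in most libraries, with the highest levels, most methylated calls, smallest p in each direction, extreme depths and most even levels. The test per gene model was a quasi-binomial regression on methylated and total counts with a Pearson dispersion floored at 1, Benjamini-Hochberg adjusted at 0.05 over all gene models tested, and was tested on simulated data. Limma 3.58.1 on logit levels with 0.5 added was an alternative. Values were computed with Python 3.11.15, numpy 2.4.6, pandas 2.3.3 and scipy 1.17.1. No label ties a library to a culture, so p-values reflect the spread among these libraries only, whether technical or not. Alternatives varied the coverage minimum (5 and 20 calls), the rule's limits, counts of 3, the title bands as a block and single libraries.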

Additional observations from a re-analysis of the deposited data

Results flagged for a closer look

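In 3 named members with 4 covered salinity libraries, 1 salinity library stood apart because the other 3 were at 0. They were Dapma7bEVm009498t1 at 0.595% in salinity replicate 2 (4 of 672 calls), Dapma7bEVm010612t1 at 15.6% in salinity replicate 7 (5 of 32 calls) and Dapma7bEVm018620t1 at 1.36% in salinity replicate 8 (6 of 440 calls). They are among 11 groups of named members examined. For this check chance flags about 1 in 20 groups of unselected values, but that rate does not apply here. With 1 library above 0 and the others at 0 the gap is the whole range by construction, and members were chosen for being at 0 in most libraries.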

How the results depend on the processing

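The number of members, 1740, was 1932 and 1472 at coverage minimums of 5 and 20 calls, 1882 without the limit on median depth, 1861 with the 121 gene models kept and 1722 with identical gene models counted once. It was 1316 with counts of 3 set to 0, of which 967 were among the 1740. It was 752 when 3 methylated libraries were required, since fewer gene models reach that limit. In the 11 libraries with a lowest recurring count of 3 it was 980, of which 966 were among the 1740. Members can be lost there through too few covering or methylated libraries. They can also be lost by reaching the upper limit on the share of methylated libraries. These losses were not counted apart. Leaving out 1 library at a time, the number of members ran from 1399 to 1645. The difference in the share of methylated members, -3.62 points, ran from -12.5 (without control replicate 3) to 1.27 in the same way, and was -2.41 with counts of 3 set to 0 and -0.515 over the 97 members covered in every library. That in the median level ran from -0.705 to 0.139, and turned to 0.276 and 0.0214 at minimums of 5 and 20 calls. Both differences moved by less than 1 SD in every setting run, with the SD pooled within the groups over all 15 libraries. The low libraries widen this SD for the share. In the 11 libraries the SDs of the share were 5.14 (salinity, n = 9) and 1.32 (control, n = 2). Both differences changed sign between settings. The settings with the 11 libraries, without salinity replicates 11 and 12, without control replicate 3 for the 829 members, for counts of 4 or more and for the methylated share of calls, and with the 121 gene models kept while libraries were left out, were added once the data had been seen.

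No member passed the test in any setting but 2. Without a floor on the dispersion 1 passed, Dapma7bEVm003477t1 (adjusted p = 0.0384), against 23 of all 1900. With counts of 3 set to 0, 2 passed, the same number as over all 1900: Dapma7bEVm004532t1 and Dapma7bEVm015122t1, both lower in salinity and named after their values were seen. As deposited these had adjusted p of 0.517 and 0.484. Members at an unadjusted p under 0.05, 11 as reported, were 23 with counts of 3 set to 0 (54 over all 1900), 26 with the title bands as a block (76 over all 1900) and 45 of 829 with 4 covered salinity libraries sufficing (260 of 8248 over all). Leaving out 1 library at a time, 0 to 0 members passed, with 8 to 21 at an unadjusted p under 0.05. Over all settings the smallest adjusted p of a member ran from 0.0344 to 0.956. The labels give no replicate numbers that the groups share, so the title bands were the only block.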
